A study of Bos taurus with 20 samples.

Results

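ENSBTAG00000009441 is 1 row of a table of 27607 genes measured in bull spermatozoa, and it was selected on its measured values: it was abundant, was seen in every library and had a higher mean in bulls of high fertility than in bulls of low fertility. Its abundance, its detection and its High to Low difference are therefore descriptions here and carry no test. The deposited table lists genes by Ensembl identifier alone. None of its identifiers (0) matched the RefSeq gene table used here, so the gene carries no symbol, position, length or sequence in this account.

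The samples are frozen-thawed spermatozoa of Holstein-Friesian bulls, a dairy breed. The High group (10 labelled libraries) holds bulls of high fertility and the Low group (10 labelled libraries) bulls of low fertility. The classes came from a statistical model adjusted for the animal, per the labels. Semen of 3 ejaculates was pooled for each bull, so a replicate is a bull and no spread between ejaculates can be seen. No treatment, genotype or age is used here. High replicate 9 and Low replicate 8 hold the same profile under opposite labels and stand in neither group, which leaves 9 High and 9 Low libraries.

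Late in spermatogenesis the chromatin of the spermatid is packed with protamines and transcription stops. The RNA found in ejaculated sperm is thus largely a remainder of earlier stages, present in small amounts, and libraries from it need amplification by PCR. Round somatic cells in semen hold far more RNA each than a sperm does, so a small number of them can add to the RNA of a sample. Markers of sperm, leukocytes and epithelium could not be looked up without symbols, and the part of other cells in the values below was not tested. In such bulk samples, fewer cells that carry a transcript and less of the transcript per cell cannot be told apart.

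ENSBTAG00000009441 was read deeply in every bull. It drew 47978 to 319258 reads per library, in libraries of 9.43 to 49.5 M reads (M, 1000000). Reads and read totals were recovered from the deposited values, taking the smallest step of a library as 1 read. That step has an independent check in 7 libraries only. At the fewest reads, counting error alone is 0.457% of the value (Poisson, as a coefficient of variation), against a coefficient of variation of 48.8% between the 18 bulls. In Low replicate 1, where the gene took its smallest share, 0.291% of reads came from it (95% Wilson interval 0.289% to 0.293%). In High replicate 16 the share was 1.95% (1.94% to 1.96%). Reads are not independent molecules after PCR, so these intervals cover counting error only.

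The level is given as the deposited normalised value. Column sums of these values ran from 562479 to 1395311, so a value is not a plain share of the reads of its library. In High bulls the value ran from 7309 (replicate 6) over a median of 14007 (replicate 2) to 20346 (replicate 15). In Low bulls it ran from 2481 (replicate 11) over a median of 8775 (replicate 5) to 16924 (replicate 7). The groups overlapped: 5 of 9 Low bulls lay above the lowest High bull, and 6 of 9 High bulls lay below the highest Low bull. The remaining 4 Low bulls (replicates 1, 11, 13 and 18) were below every High bull, and the remaining 3 High bulls (replicates 10, 15 and 16) were above every Low bull. The highest and the lowest of the 18 bulls differed 8.20-fold.

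**Figure D1:**
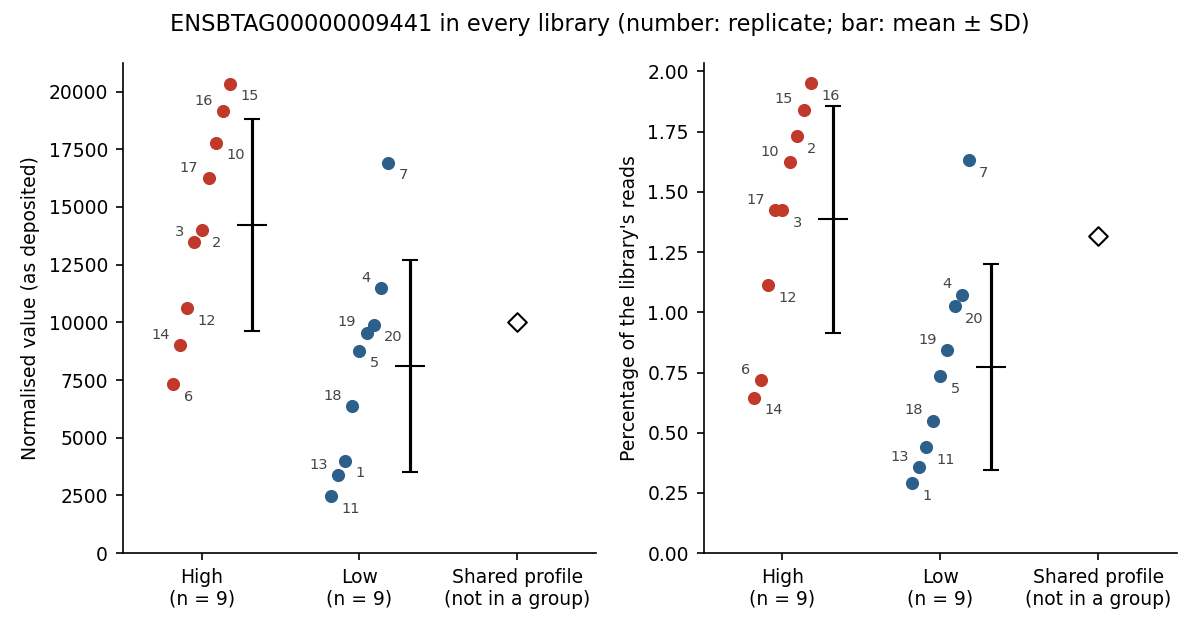
Value of ENSBTAG00000009441 in each library (left, normalised value; right, percentage of the library's reads), by group, with replicate numbers beside the points, the mean ± SD of each group (n = 9) as a bar and the profile held under both labels as an open diamond. High bulls lie between 7309 and 20346 and Low bulls between 2481 and 16924, so the ranges overlap.

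High bulls averaged 14220 ± 4574 and Low bulls 8100 ± 4593 (SD, n = 9 per group). Their difference of 6120 exceeded the SD of either group. The coefficient of variation was 32.2% in High and 56.7% in Low, and the highest Low bull stood 6.82-fold above the lowest, against 2.78-fold in High. On the log2(value + 1) scale the means were 13.72 ± 0.51 and 12.75 ± 0.91 (SD, n = 9 each), a difference of 0.97 (SE 0.35), or 1.96-fold. Of the 81 pairs of a High and a Low bull, the High bull was higher in 67, which is 82.7%. These figures restate the pattern for which the gene was picked. In the same contrast limma called 0.00% of the 1458 tested genes (0 genes at an adjusted p under 0.05, 40 at an unadjusted one). On reads recovered for 7 libraries edgeR called 0 of 3079 genes (121 at an unadjusted p under 0.05) and DESeq2 105 of 2881 (3.64%), and nothing about ENSBTAG00000009441 is read from these counts.

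A share of reads gave the same order of the groups as the normalised value. High bulls gave it 1.39% ± 0.471 of their reads and Low bulls 0.772% ± 0.428 (SD, n = 9 per group). Its share was above 1% in 7 of 9 High bulls and in 3 of 9 Low bulls. Low replicate 11 had the lowest normalised value, 2481, yet its share of 0.441% was above that of Low replicates 1 (0.291%) and 13 (0.358%), and its column had the smallest sum of the 18. The lowest place thus depends on the scaling, while replicates 1, 11 and 13 remained the lowest bulls on both scales.

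Rank within a library needs no scaling between libraries. ENSBTAG00000009441 ranked from 7th to 25th by value in High bulls (median 12) and from 8th to 49th in Low bulls (median 20). It was among the 10 highest values in 4 of 9 High bulls and in 1 of 9 Low bulls, and among the 25 highest in 9 of 9 High bulls and 6 of 9 Low bulls. The gene held the first place in 0 of 18 libraries, although 6 other genes did so. Relative to the leading gene of the same library, whichever that was, its value stood at 0.273 ± 0.0778 in High bulls and 0.123 ± 0.0761 in Low bulls (SD, n = 9 per group). Values are not per transcript length, so a rank orders shares of reads and not transcript numbers.

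The 3 lowest values of ENSBTAG00000009441 fell in libraries led by ENSBTAG00000021493, a gene singled out after its values were seen. It led 4 libraries, Low replicates 1, 11 and 13 and High replicate 6. These hold the lowest 3 Low values and the lowest High value of ENSBTAG00000009441. By share of reads the lowest High bull was instead replicate 14 (0.646%, against 0.717% in replicate 6), which was led by ENSBTAG00000040318. High replicate 10 went the other way, with 53166 of ENSBTAG00000021493 and 17793 of ENSBTAG00000009441, though ENSBTAG00000021493 did not lead it. ENSBTAG00000021493 had the highest mean of all genes, at 23936 ± 17839 in High bulls and 52673 ± 53781 in Low bulls (SD, n = 9 per group). It took up to 12.3% of the summed values, in Low replicate 1. Across the 18 libraries its Spearman correlation with ENSBTAG00000009441 was -0.699, and -0.827 after each column was rescaled to the same sum. Both genes are parts of the same sum in a library, so their values are not independent.

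Among the genes that every bull carried, ENSBTAG00000009441 was one of the more abundant and less variable. It ranked 13th of all genes by mean value (11160) and belonged to the 171 genes with a value of 1 or more in all 18 libraries, which made up 65.0% of the summed values on average. The SD of its log2 value over the 18 bulls was 0.88, against a median of 1.05 over those 171 genes (range 0.47 to 2.38), and 52 of them varied less. Within groups its SD was 0.74, against a median of 1.04. Among the 25 genes of highest mean it was 7th from the least variable. Its High minus Low difference was the 10th highest of the 171, whose differences spanned -1.26 to 1.30 (median 0.07), and the 2nd highest of the 25. A mean higher in High was found for 94 of the 171 genes, or 55.0%, and for 75 of them when libraries were scaled by the median ratio over the 171 genes. On that scale ENSBTAG00000009441 kept the 10th place, with a difference of 0.83.

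**Figure D2:**
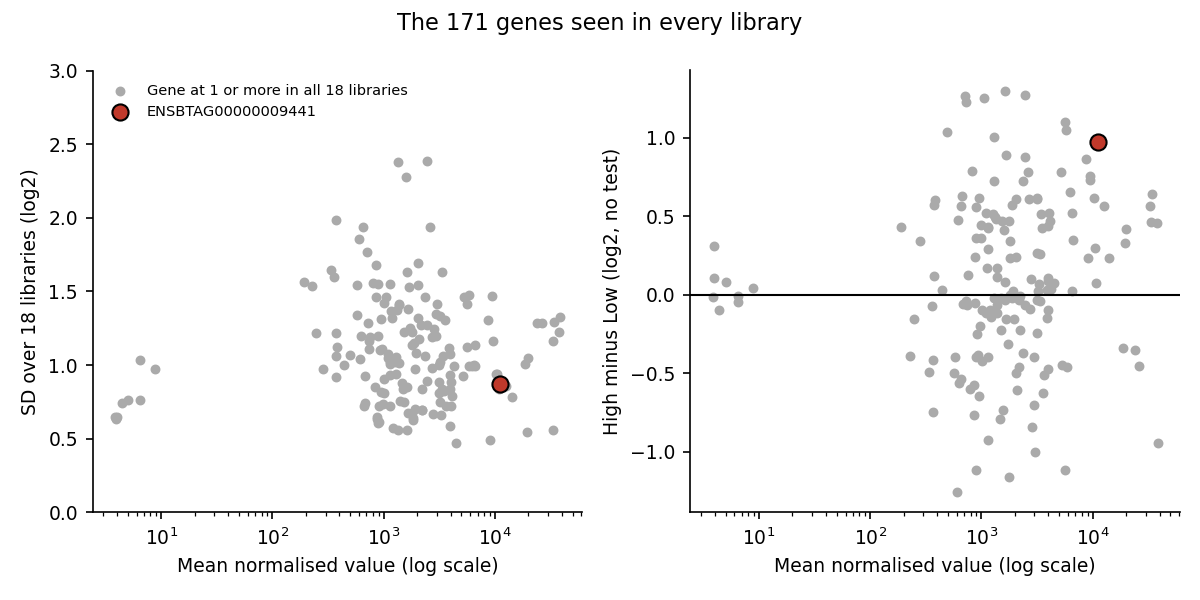
The 171 genes with a value of 1 or more in all 18 libraries, by mean normalised value (log axis), against the SD of log2(value + 1) over the libraries (left) and the High minus Low difference of log2 means (right, described without a test), with ENSBTAG00000009441 in red. The gene has an SD of 0.88, below the median of 1.05, and a difference of 0.97, near the upper end of the range.

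By mean value, the gene directly above was ENSBTAG00000051831, with a mean of 12691. It had 14496 ± 5844 in High bulls and 10886 ± 5210 in Low bulls (SD, n = 9 per group), and its Spearman correlation with ENSBTAG00000009441 was 0.455 over 18 libraries (Pearson of log2 values 0.721). ENSBTAG00000000375, directly below with a mean of 10803, had 11318 ± 5731 in High bulls and 10287 ± 5264 in Low bulls (SD, n = 9 per group), with a correlation of -0.168. Their High minus Low differences on the log2 scale were 0.56 and 0.07.

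A few other genes followed ENSBTAG00000009441 from bull to bull. Likeness was measured as Spearman's correlation of values over the 18 libraries among the other 170 genes at 1 or more in every library, and is a description. These correlations spanned -0.839 to 0.798, around a median of 0.0826. They exceeded 0.6 for 11 genes and lay below -0.6 for 14. Within Low alone 37 genes exceeded 0.6 (highest 0.933) and 18 lay below -0.6. Within High alone 9 exceeded 0.6 (highest 0.717) and 14 lay below -0.6. All points share the libraries and their scaling factors.

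The closest was ENSBTAG00000020860, with a correlation of 0.798 over the 18 libraries, 0.700 within High and 0.800 within Low (9 libraries each). Its value ran from 3083 to 11811 in High and from 714 to 11502 in Low. The next was ENSBTAG00000020164 (0.792, and 0.683 and 0.883 within High and Low), with values from 3001 to 22163 in High and from 1000 to 19089 in Low. Both had their lowest value in Low replicate 11, as ENSBTAG00000009441 did. That library had the smallest column sum of the 18 (562479), and ENSBTAG00000051831 was lowest there as well (2042). With median-ratio scaling the lowest value of ENSBTAG00000009441 was instead in Low replicate 13 (3452). Relative to ENSBTAG00000009441, the value of ENSBTAG00000020164 ranged from 0.327 to 1.18, so the ratio of these genes was not fixed. The High minus Low difference on the log2 scale was 1.10 for ENSBTAG00000020860 and 0.76 for ENSBTAG00000020164, against 0.97 for ENSBTAG00000009441. These genes were named for likeness, over both groups, to a gene picked for a higher High mean. Their differences are thus not separate findings, nor is the opposite direction of the least like gene.

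The third was ENSBTAG00000053171 (0.783, and 0.717 and 0.833 within High and Low), a gene of trace level (Pearson of log2 values 0.708). It was present in all 18 libraries at values of only 1.32 to 10.97, from 23 to 130 reads. Counting error is larger there than for the other genes named. At the other end, ENSBTAG00000005202 ran most against ENSBTAG00000009441, with a correlation of -0.839, and of -0.800 within High and -0.733 within Low. High bulls had 3408 ± 2557 of it and Low bulls 7918 ± 6690 (SD, n = 9 per group), and its highest value, 21494, fell in Low replicate 1.

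**Figure D3:**
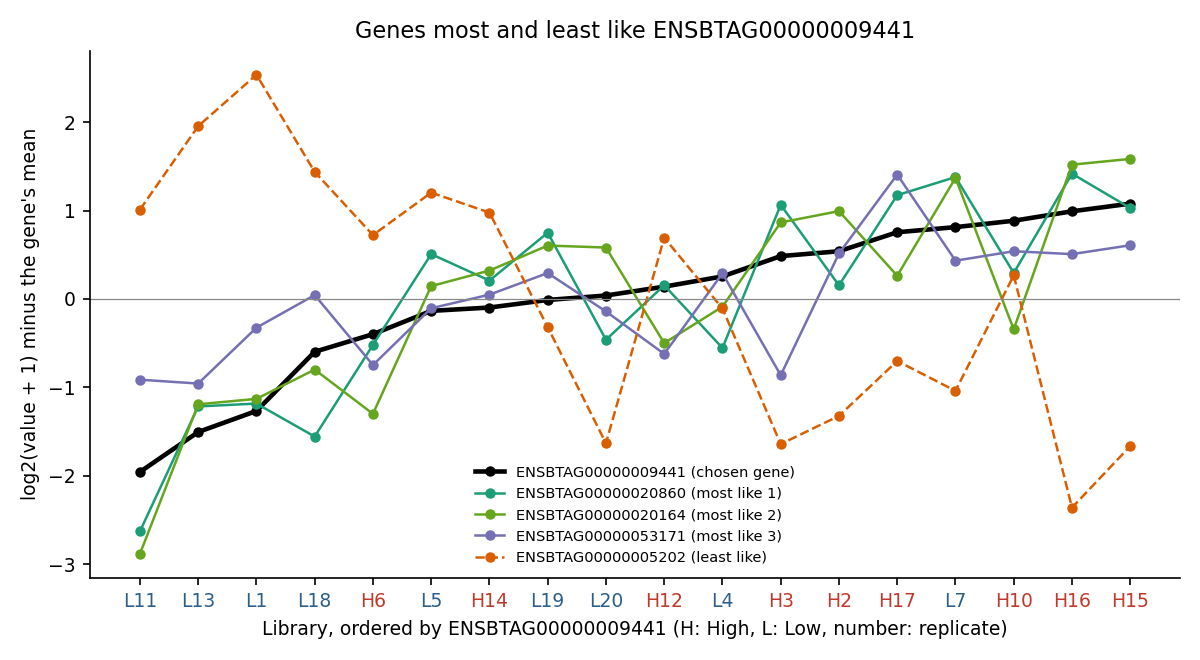
Deviation of log2(value + 1) from each gene's own mean in the 18 libraries, ordered from the lowest to the highest ENSBTAG00000009441 (black), for the 3 genes most like it and the gene least like it (dashed). ENSBTAG00000020860 and ENSBTAG00000020164 are lowest in Low replicate 11, the library with the smallest column sum. ENSBTAG00000005202 is highest in Low replicate 1.

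Whether the level of ENSBTAG00000009441 goes with depth or with the number of genes detected was not part of how it was chosen, and could be tested. The slopes hold a group term, and the correlations within a group compare bulls of that group only. Correlations over all 18 libraries hold no group term, and the groups differ in median depth. The High to Low difference for which the gene was picked thus enters them. Per doubling of the number of genes above 0 in a library (708 to 3720), its log2 value had a slope of -0.03 (SE 0.29, 95% interval -0.62 to 0.56, limma with a group term, adjusted p = 0.937). In that fit 23.5% of the 1458 tested genes passed, all 343 with higher values where more genes were detected, and the median slope was 1.94. Among the 171 genes seen in every bull the median slope was 0.37, 17 passed, and ENSBTAG00000009441 was the 25th lowest. Many tested genes are at 0 in some libraries, and their zeros also set the number of genes detected, while ENSBTAG00000009441 was never at 0.

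Per doubling of the read total the slope was -0.36 (SE 0.33, 95% interval -1.04 to 0.32, limma, adjusted p = 0.513). With columns rescaled to the same sum it was -0.66 (95% interval -1.26 to -0.05, limma unadjusted p = 0.0348, adjusted 0.457). In the fit of the values as deposited, 0.00% of the 1458 genes passed (0 genes, 220 at an unadjusted p under 0.05), with a median slope of 1.496. With rescaled columns 0 genes passed as well (146 at an unadjusted p under 0.05), with a median slope of 1.26. Of the 171 genes seen in every bull, 5 had a lower slope than ENSBTAG00000009441 in the fit of the deposited values. The High slope minus the Low slope was -0.53 for the number of genes detected (SE 0.58, limma adjusted p = 0.967) and -0.70 for the read total (SE 0.81, limma adjusted p = 0.805), and neither passed. In these fits, as in the contrast of the groups, 0.00% of genes passed.

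**Figure D4:**
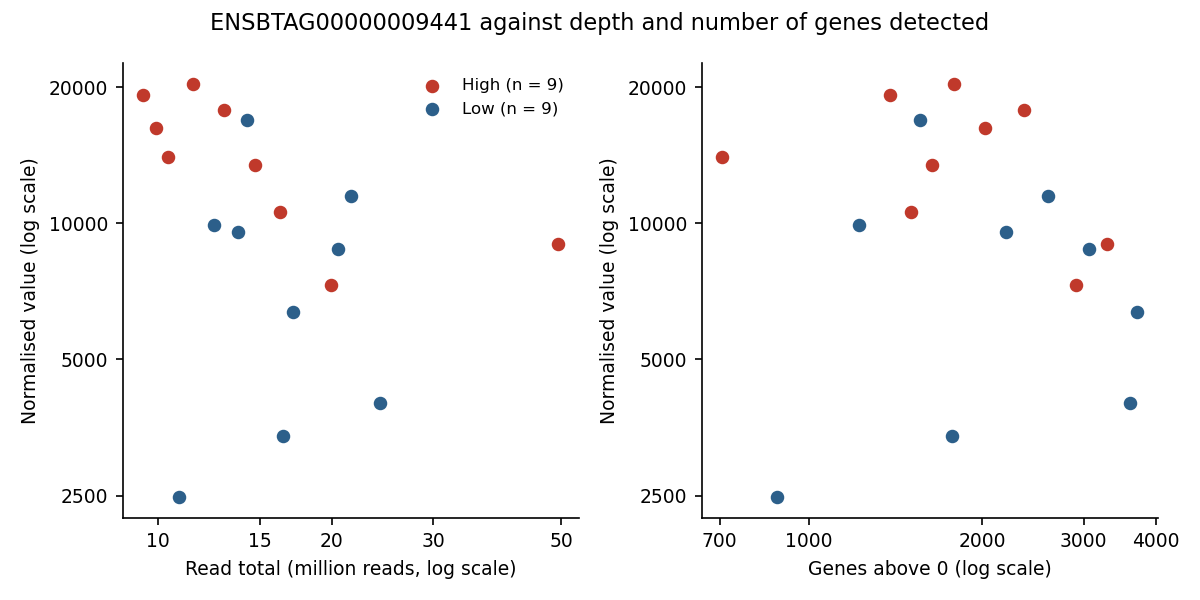
Normalised value of ENSBTAG00000009441 against the read total (left) and the number of genes above 0 (right) of each library, all axes logarithmic, with High in red and Low in blue (n = 9 each). Against the read total, r is -0.740 in High and 0.0821 in Low, and neither passed after adjustment.

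The correlation with the read total differed between the groups in size. The difference between the 2 correlations was not tested itself, and the High slope minus the Low slope, given above, did not pass. Over 18 libraries Pearson's r of the log2 values was -0.304 (permutation p = 0.221, adjusted over 12 values 0.530) and Spearman's rho was -0.542 (permutation p = 0.0220, adjusted 0.0880). In the 9 High libraries r reached -0.740 (exact p by permutation 0.0152) and rho reached -0.800 (exact p by permutation 0.0138), each 0.0880 after adjustment. Without High replicates 14 and 6, the libraries farthest from the High median of the read total, r was -0.669. In the 9 Low libraries r was 0.0821 (exact p by permutation 0.829) and rho was 0.0667 (exact p by permutation 0.880), each 0.948 after adjustment, and without Low replicates 11 and 1 r was -0.136. No correlation of the normalised value passed after adjustment, and all p-values here are two-sided.

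Taken as a share of reads, the correlation in High was stronger. This scaling was added once the values were known, and its p-values were adjusted within each setting and not over all settings tried. After each column was rescaled to the same sum, r with the read total within High was -0.887 (exact p by permutation 0.000438, adjusted over 12 values 0.00526). Spearman's rho there was -0.817 (exact p by permutation 0.0108, adjusted 0.0431). Without High replicates 14 and 6, r was -0.740 (exact permutation p = 0.0550, adjusted 0.165), and the call was lost with 7 libraries. Over 18 libraries rho was -0.626 (permutation p = 0.00622, adjusted 0.0373), and without High replicate 14 and Low replicate 1 it was -0.544 (permutation p = 0.0326, adjusted 0.130). A share holds the read total in its divisor, so the measures are not independent. The normalised value is not free of depth either, being reads multiplied by 1 factor per library. High replicate 14 had 319258 reads of the gene in 49.5 M and a value of 9008. High replicate 16 had 184001 reads in 9.43 M and a value of 19159. The slopes and correlations of the normalised value with the read total share this limit.

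Correlations of the normalised value with the number of genes detected did not pass. Over 18 libraries r was -0.111 (permutation p = 0.663, adjusted 0.884) and rho -0.319 (permutation p = 0.197, adjusted 0.530), and without High replicate 2 and Low replicate 11 r was -0.471. With columns rescaled to the same sum r was -0.399 and rho -0.484 over 18 libraries (permutation p = 0.101 and 0.0441), and neither passed after adjustment. Within High, r was -0.409 and rho -0.383 (exact permutation p = 0.279 and 0.313, adjusted 0.536 for each), with r = -0.458 without High replicates 2 and 14. Rescaled, r within High was -0.676 (exact permutation p = 0.0466, adjusted 0.0933). Within Low, r was 0.167 and rho -0.0333 (exact permutation p = 0.663 and 0.948, adjusted 0.884 and 0.948), with r = -0.334 without Low replicates 11 and 20.

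The median read total was 13.02 M in High and 16.5 M in Low, and the median number of genes detected was 1785 and 2199. With the read total as a term in the fit, the High minus Low difference of ENSBTAG00000009441 was 0.92 log2, and with the number of genes detected it was 0.97, against 0.97 with neither. Leaving out 1 library at a time gave 0.79 (without Low replicate 11) to 1.13 (without Low replicate 7). The gene was picked for this difference, so these values only describe it. Whether depth or the number of genes detected has a part in it was not tested.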

How the data were processed

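Messenger RNA of spermatozoa from 20 bulls was sequenced with a low-input library kit, per the labels' protocols. The build UMD3.1 and the tools STAR 2.6.1, edgeR 3.5, R 3.4, cutadapt 2.6 and FastQC 0.11.8 stand in the submitters' processing notes. How reads were counted, with which strand setting and annotation, is not given in the sources used here. A normalised signal was deposited: in each column the authors' values are whole reads multiplied by 1 factor, and the column sums have a geometric mean of 1000000. Taking the smallest step as 1 read, 100% of values were whole within 0.1 read. That step has an independent check in 7 libraries (4 High, 3 Low), and in the other 13 read totals rest on it.

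The gene, the named-gene rule and the tests were chosen with earlier results of these data known. The rule named the 3 genes most like the gene, the 1 least like it and its neighbours by mean. Planned marker lists were not used, since no identifier had a symbol. Fits used R 4.3.3 and limma 3.58.1, with its trend option, on log2(value + 1), for genes at 1 or more in at least 9 of 18 libraries, two-sided, with Benjamini-Hochberg adjustment over all 1458 and a threshold of 0.05. Of these fits, only that of the slope on the read total was tried on simulated data, with slopes larger in size than that of the gene. Correlations of log2 measures had exact permutations within groups and 100000 over 18 libraries, adjusted over 12 p-values (scipy 1.17.1, numpy 2.4.6). For the 7 libraries with recovered reads, DESeq2 1.42.0 and edgeR 4.0.16 served as count tests. Alternatives covered scaling, pseudocount, filter, libraries left out and the shared profile.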

Additional observations from a re-analysis of the deposited data

Results flagged for a closer look

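Within each group of 9, the highest and the lowest library were compared with the rest. This covered 32 groups of values (9 measures of ENSBTAG00000009441 and its libraries, and 7 other genes), and 3 values stood apart. Chance sets a library apart in about 1 of 20 such groups, and many of the measures share their values. In the High group, replicate 14 stood apart on the upper side in its read total, 49.5 M, and in its reads of ENSBTAG00000009441, 319258, while its normalised value of the gene, 9008, did not stand apart. Replicate 17 did so for ENSBTAG00000053171, at a value of 10.97. None of the 18 values of ENSBTAG00000009441 itself stood apart in its group.

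The profile held under both High replicate 9 and Low replicate 8 was used in neither group. In it ENSBTAG00000009441 had a value of 9996, or 1.32% of reads (95% Wilson interval 1.31% to 1.33%), and ranked 10th. That value lies inside the range of both groups.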

How the results depend on the processing

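The High minus Low difference of ENSBTAG00000009441, described without a test, stayed above 0 in 13 alternatives (0.67 between group medians to 1.03 in the 7 libraries with recovered reads) and with each of the 18 libraries left out (0.79 to 1.13). The slope on the number of genes detected passed under no alternative (adjusted p 0.262 to 0.999). It was -0.39 with columns rescaled to the same sum, -0.38 with median-ratio scaling, -1.40 with edgeR on 7 libraries and 0.21 in Low libraries alone, and ran from -0.39 to 0.0705 with 1 library left out, turning positive in 5 of 18. The slope on the read total did not pass either (adjusted p 0.411 to 1). It was -0.66 with either scaling, where the unadjusted 95% intervals excluded 0, 0.19 in Low alone and -0.57 to -0.29 with 1 library left out. With columns rescaled to the same sum, the correlation with the read total passed in High (r = -0.887, rho = -0.817) and over 18 libraries (rho = -0.626), and with median-ratio scaling in High (r = -0.869, adjusted p = 0.0151). Over 18 libraries r with the number of genes detected was -0.399 with either scaling and -0.605 (adjusted p = 0.0799) when rescaled with the farthest libraries left out. The Low correlations above 0 changed sign. With the number of genes detected, Pearson's r in Low was -0.197 (rescaled), -0.163 (median ratio), -0.334 (farthest libraries left out) and -0.472 (rescaled, farthest left out). With the read total in Low, r was -0.246, -0.176, -0.136 and -0.223 in the same order, and rho -0.200, -0.133, -0.143 and -0.143. The cause was not tested. Genes called between High and Low numbered 1 with no filter and 105 with DESeq2 on 7 libraries, against 0. Of the 3 genes most like ENSBTAG00000009441, 1 stayed among the 3 most like within High and 0 within Low, and 2 under each other setting. Alternatives added once the values were known are the 7 libraries for the difference and for the slopes, the shared profile in 1 group, depth and genes detected as terms, the rescaled or median-ratio correlations and slope differences, and the rescaled likeness. No paired analysis was possible because the replicate numbers of High and Low do not repeat.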
